A study of Glycine max with 3 samples.

Results

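The miR166 family of vegetable soybean comprised 14 distinct mature sequences of 381 in the deposited miRNA profile, listed in 36 of its 587 entries. They were chosen by name, as every entry named miR166 or MIR166 with or without a suffix, and were joined with the 70 of 898 miRNA and transcript pairs that the authors' deposited table of a degradome lists for the same family. The plants were the Glycine max cultivar Taiwan 75, at the stage of 1 true leaf. Control plants grew at a day temperature of 25 °C and a night temperature of 17 °C, with 12 h of light at 600 μmol m-2 s-1. Chilled plants were moved to 4 °C for 24 h, with the other conditions kept as in the control. Leaves of 3 replicates were pooled before sequencing, which left 1 small RNA library per condition. The degradome came from 1 library that mixed chilled and control leaves, so it gives no value per condition. Its stage label counts from pollination and so conflicts with the seedling stage in the growth protocol, while its tissue label is leaf. The files hold no messenger RNA levels, so the tissue was not checked against marker genes.

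In plants, miR166 comes from the 3′ arm of a short hairpin and pairs with messenger RNAs of the class III homeodomain-leucine zipper (HD-ZIP III) transcription factors, which are then cut at the paired site. In Arabidopsis this class holds PHABULOSA (PHB), PHAVOLUTA, REVOLUTA (REV), CORONA (CNA, also ATHB-15) and ATHB-8. PHB, PHAVOLUTA and REV promote the upper (adaxial) side of the leaf, REV also acts in meristem and stem patterning, and CNA and ATHB-8 act in vascular and meristem development. The miRNA limits these factors to the upper side of the young leaf. A degradome library sequences the 5′ ends of uncapped, cut messenger RNAs, among which cut sites of a miRNA can be sought.

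Of the mature sequences 5 came from the 3p arm and 9 from the 5p arm, and all 14 were 21 bases long. The sequences of the 3p arm are shown because this arm holds miR166a-3p and MIR166l-p3, which the authors' deposited table pairs with HD-ZIP III transcripts, and the near-identical sequences that have no pair there. They are given 5′ to 3′ in DNA letters as deposited, with the seed (bases 2 to 8) in capitals.
miR166a-3p: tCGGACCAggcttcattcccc
miR166p: tCGGACCAggcttcattccct
miR166h-3p: tCGGACCAggcttcattcccg
MIR166l-p3: tCGGACCAggcttcatttccc
miR166h-3p of chromosome 19: tCTCGGACcaggcttcattcc
The seed of 4 of the 5 was CGGACCA. Counted from 1 at the 5′ end of miR166a-3p, with its base first, miR166p carried C21T, miR166h-3p C21G and MIR166l-p3 C18T, so the 3 most abundant sequences of the arm differed from each other only in their last base. The authors gave the name miR166h-3p to 2 sequences. The one from chromosome 19 starts 2 bases further upstream and shares 19 bases with miR166a-3p, which moves its seed to CTCGGAC. The miR166a-3p sequence is also listed once under the name miR166m.

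The 5p arm is the strand opposite the mature 3p sequence in the hairpin duplex, often written miRNA star. Its sequences are shown because they varied both in their letters and between the libraries.
miR166i-5p: gGAATGTCgtctggttcgaga
miR166a-5p: gGAATGTTgtctggctcgagg
MIR166e-p5: gGAATGTTggctggctcgagg
miR166h-5p: gGAATGTTgtttggctcgagg
MIR166r-p5: gGAATGCAgtgtggtccaagg
MIR166f-p5: gGAATGGTgtctggttcgaga
MIR166g-p5: gGAATGTCgtttggttcgaga
Against miR166a-5p, MIR166e-p5 carried the single change T10G and miR166h-5p the single change C11T. The changes of miR166i-5p were T8C, C15T and G21A, and those of MIR166r-p5 were T7C, T8A, C11G, C15T, T16C and G18A. The seed differed accordingly, with GAATGTT in 3 sequences, GAATGTC in 3, and GAATGGT and GAATGCA in 1 each. The other 2 sequences of this arm were barely detected. MIR166k-p5 had 1 control read and 2 chilled reads. MIR166p-p5 had 1 and 1.5 reads, is a sequence of the GAATGTC group, and holds an undetermined base.

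The family was read from 19 hairpins on 13 chromosomes and on scaffold_1057. RefSeq lists 20 MIR166 genes for soybean in Glycine_max_v4.0, which were not matched to these hairpins. The miR166a-3p sequence is listed at 14 hairpins and miR166a-5p at 7, so the reads of these sequences cannot be assigned to single genes. The hairpins were 97 to 190 bases long, with a median of 143 against 117 for the 329 hairpins of other families. Their median GC content was 43.4% against 41.3%, and their median folding index (MFEI, the folding energy scaled to length and GC content) was 0.9 against 1.0. These hairpin properties are the authors' deposited values and are given as a description.

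The sequences of 3 hairpins show how the arms are placed, with the mature sequences of both arms in capitals. They are the shortest hairpin of the family, on chr2:14544488-14544584 (plus strand), and those of the 2 sequences that passed a 2-fold difference, on chr4:47978919-47979028 (plus strand) and scaffold_1057:1988-2142 (minus strand). Coordinates are as deposited, in a genome build that was not named in the sources used here.
Hairpin of miR166i-5p and miR166a-3p: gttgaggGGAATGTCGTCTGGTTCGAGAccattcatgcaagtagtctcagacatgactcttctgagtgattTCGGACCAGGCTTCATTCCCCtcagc
Hairpin of MIR166e-p5 and miR166a-3p: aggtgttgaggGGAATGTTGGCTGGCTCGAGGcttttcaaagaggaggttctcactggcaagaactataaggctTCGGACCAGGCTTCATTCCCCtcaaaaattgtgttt
Hairpin of MIR166r-p5 and miR166p: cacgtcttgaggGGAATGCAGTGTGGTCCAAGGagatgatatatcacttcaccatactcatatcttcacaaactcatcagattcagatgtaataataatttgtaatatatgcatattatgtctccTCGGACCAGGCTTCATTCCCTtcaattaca
The 3p sequence is nearly the same in the 3 hairpins, and the 5p sequences and the loops differ. The hairpin on chromosome 4 is the first of a tandem pair on the plus strand. The second member lies at chr4:47979176-47979327, 147 bases further on, and lists miR166a-5p in place of MIR166e-p5. The deposited MIR166l-p3 sequence does not occur in its hairpin on chromosome 6, where the closest stretch differs by C2G within the seed (the mature sequence's base first). The undetermined base of MIR166p-p5 is an A in its hairpin on chromosome 3.

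The miR166 family was abundant in both libraries, and its main product was nearly level between them under the main scaling. The profile, with 1 entry counted per sequence, summed to 3856902 control reads and 5347700 chilled reads. The miR166a-3p sequence had 5092 control and 6211 chilled reads, and ranked 15 of the 381 sequences in each. After scaling for depth (edgeR TMM) the log2 ratio of chilled to control reads was 0.04, with a 95% interval of -0.01 to 0.09. Its side of 0 depends on the scaling. Scaled to the same table total the ratio of miR166a-3p was -0.18 (-0.24 to -0.13), and without scaling it was 0.29 (0.23 to 0.34). In leaf RNA, fewer cells of a type and less of the miRNA per cell cannot be told apart. Intervals here are exact binomial ones that cover counting error only. With 1 library per condition the ratios compare those 2 libraries, there is no replicate check, and no test between conditions was made.

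**Figure D1:**
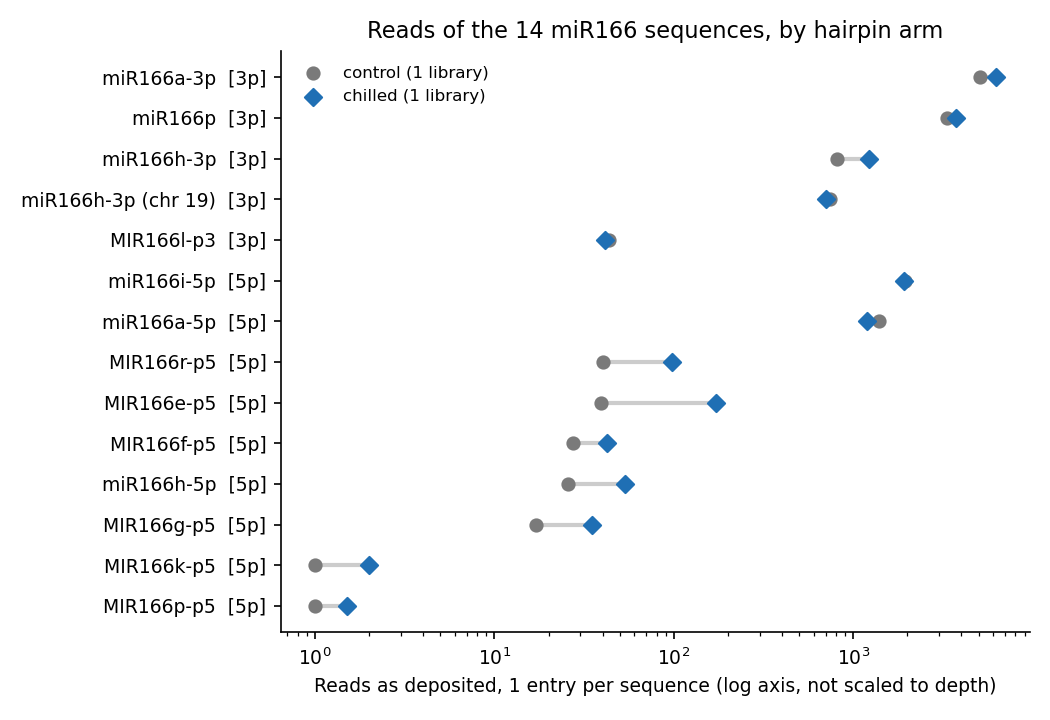
Deposited reads of the 14 miR166 sequences in the control (grey circles) and chilled (blue diamonds) libraries, 1 library each, on a log axis and not scaled to depth. The abundant sequences of both arms lie to the right, miR166a-3p at 5092 and 6211 reads, and MIR166e-p5 has the widest gap between the libraries among sequences with more than 10 reads.

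The other sequences of the 3p arm differed little between the libraries. Reads of miR166p were 3317 (control) and 3738 (chilled), a log2 ratio of -0.07 (95% interval -0.14 to -0.01). Reads of miR166h-3p were 814 and 1228, a log2 ratio of 0.35 (0.22 to 0.48), which was the highest of the arm. Reads of the upstream-shifted miR166h-3p of chromosome 19 were 741 and 706, a log2 ratio of -0.32 (-0.47 to -0.17). The 2 sequences that carry this name thus lay on opposite sides of 0. Their intervals depend on the scaling. That of the first included 0 at the same table total (-0.01 to 0.25). That of the chromosome 19 sequence included 0 without scaling (-0.22 to 0.08) and at the same table total without miR3522 (-0.27 to 0.03). The scarce MIR166l-p3 had 43.5 and 41.2 reads, a log2 ratio of -0.32 with an interval of -0.97 to 0.34, so no difference was detectable at this depth.

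The 2 abundant sequences of the 5p arm were lower in the chilled library after TMM scaling. Reads of miR166i-5p were 1944 (control) and 1908 (chilled), a log2 ratio of -0.27 (95% interval -0.37 to -0.18). Reads of miR166a-5p were 1398 and 1192, a log2 ratio of -0.48 (-0.59 to -0.36). Both intervals lie below 0 by counting error, and neither sequence reached a 2-fold difference. For miR166i-5p this depends on the scaling. Its interval included 0 without scaling (-0.12 to 0.06). It also included 0 at the same table total without miR3522, the most abundant miRNA (-0.17 to 0.02).

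The scarce 5p sequences lay the other way. MIR166e-p5 had 39.1 control and 171 chilled reads, giving a log2 ratio of 1.85 (95% interval 1.38 to 2.43) or a 3.61-fold higher level. MIR166r-p5 had 40.0 and 97.0 reads, a log2 ratio of 1.01 (0.49 to 1.60) or a 2.02-fold higher level, just past the 2-fold mark. MIR166e-p5 stands apart from the abundant miR166a-5p by a single base, T10G, and the libraries differed in opposite directions for the pair. Just short of the 2-fold mark, miR166h-5p had 25.6 and 53.2 reads (log2 ratio 0.79, interval 0.08 to 1.52) and MIR166g-p5 had 17.0 and 35.0 reads (0.76, interval -0.08 to 1.72). MIR166f-p5, also listed as MIR166d-p5, had 27.5 and 42.5 reads (0.37, interval -0.39 to 1.08). The last 2 intervals include 0.

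By a rule of at least a 2-fold difference and at least 10 normalised reads in one library, 12 of the 14 sequences could be called. Of these, 2 were higher in the chilled library (MIR166e-p5 and MIR166r-p5), 0 were lower and 10 were neither. Over the whole profile the same rule called 14.1% of 213 sequences higher and 16.4% lower, so 2 of 12 is a share near the background. The median log2 ratio of the 12 sequences was 0.19, against 0.06 for all 213. With DESeq2 scaling only MIR166e-p5 passed the rule, and without scaling miR166h-5p and MIR166g-p5 passed it too.

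**Figure D2:**
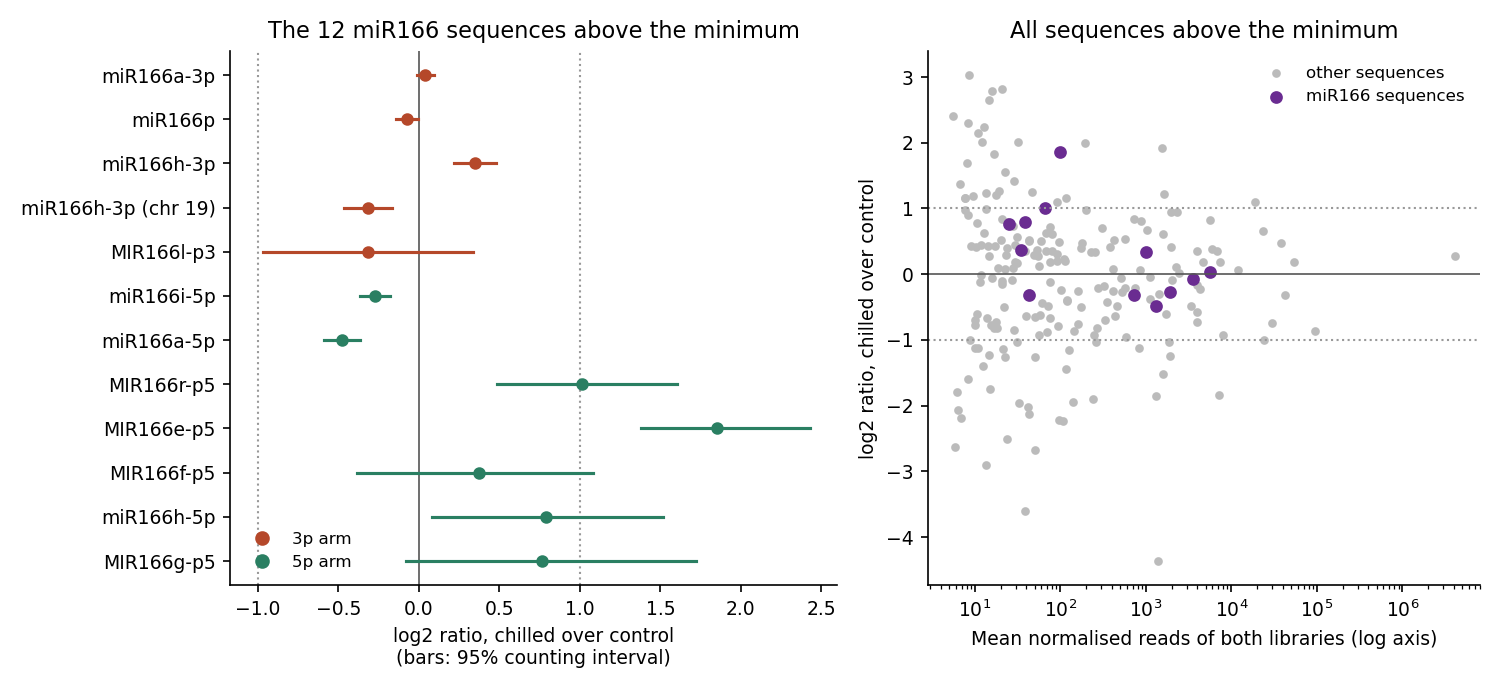
Left, log2 ratio of chilled to control normalised reads (plus a pseudocount of 1) for the 12 miR166 sequences above the minimum, with 95% counting intervals as bars, 3p arm in red and 5p arm in green, and dotted lines at a 2-fold difference. Right, the same ratio against mean normalised reads (log axis) for all 213 sequences, with miR166 in purple. The abundant members lie from -0.48 (miR166a-5p) to 0.35 (miR166h-3p), and MIR166e-p5 at 1.85 is the highest of the family.

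Summed by arm and scaled by TMM, the mature 3p strand was level and the 5p strand was lower in the chilled library. The 5 sequences of the 3p arm summed to 10007 control and 11924 chilled reads, giving a log2 ratio of 0.01 (95% interval -0.03 to 0.04). The 9 of the 5p arm summed to 3493 and 3501 reads, a log2 ratio of -0.24 (-0.31 to -0.18). The whole family summed to 13500 and 15425 reads, a log2 ratio of -0.05 (-0.09 to -0.02). These levels depend on the scaling: scaled to the same table total the family ratio was -0.28, and without scaling it was 0.19. The lower 5p sum was lost in 2 settings, at 0.0033 (-0.065 to 0.071) without scaling and -0.045 (-0.113 to 0.023) at the same table total without miR3522.

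**Figure D3:**
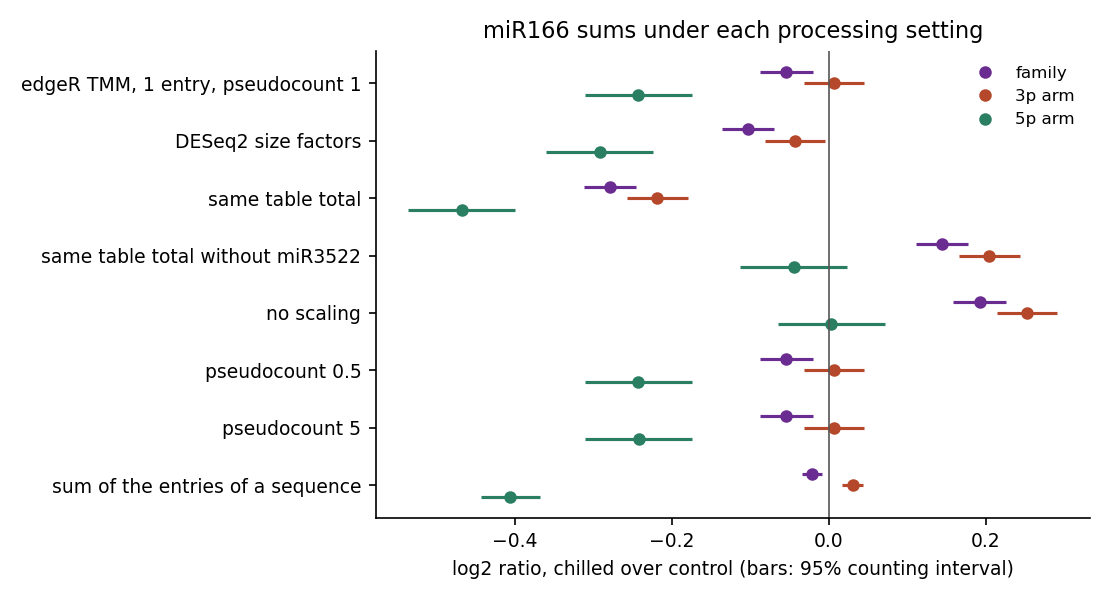
Log2 ratio of chilled to control for the sums of the whole miR166 family (purple), its 3p arm (red) and its 5p arm (green) under each way of processing the deposited reads, with 95% counting intervals as bars. The position of all 3 against 0 moves with the scaling, from -0.28 to 0.19 for the family. The 5p arm lies below the 3p arm in every setting shown. Scaling shifts both arms about equally by construction, so their order under the different scalings is not separate support.

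The balance of the arms within a library does not depend on the scaling, but it does depend on how entries are counted. With 1 entry per sequence, reads of the 3p arm were 2.86 times those of the 5p arm for the control and 3.41 times for the chilled leaves. The 5p arm made up 25.9% of the family's control reads (Wilson 95% interval 25.1% to 26.6%) and 22.7% of its chilled reads (22.0% to 23.4%). The intervals do not overlap, and they cover counting error only. With entries summed the 3p reads were 6.44 and 8.72 times the 5p reads, and the 5p share was 13.4% and 10.3%. The most abundant sequence, miR166a-3p, made up 37.7% of the control reads of the family (36.9% to 38.5%) and 40.3% of its chilled reads (39.5% to 41.0%).

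Within the 5p arm, the 2 abundant sequences and the scarce ones lay on opposite sides of 0. Together miR166i-5p and miR166a-5p had 3342 control and 3099 chilled reads, giving a log2 ratio of -0.35 (95% interval -0.43 to -0.28). The other 7 sequences of the arm had 151 and 402 reads, a log2 ratio of 1.16 (0.89 to 1.45). The ratios of all 7 were above 0, but the 95% intervals of MIR166f-p5, MIR166g-p5, MIR166k-p5 and MIR166p-p5 included 0. The last 2 of these lay below the minimum of reads for a call. Of the summed reads, MIR166e-p5 alone held 39.1 (control) and 171 (chilled). This split of the arm at 1000 control reads was made after the values were seen, and it is given as a description. It rests on control reads alone, and whether equally scarce sequences of other families also lay above 0 was not tested.

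How much of the family miR166a-3p, with its 14 entries, takes up depends on how its entries are read. The sources do not say whether each entry holds all reads of a sequence or a share of them. Of the 106 sequences of the whole profile listed at several entries, 92 had fractional reads, against 55 of the 275 listed once. If entries are summed, the family had 88813 control and 104455 chilled reads, and miR166a-3p made up 80.1% and 83.1% of them. The 3p share was higher in the chilled library on either reading. The family ranked 10 (control) and 9 (chilled) of 136 families with 1 entry per sequence, and 5 and 3 with entries summed. It made up 0.350% of the control profile and 0.288% of the chilled one with 1 entry, and 2.13% and 1.85% with entries summed. With miR3522, the most abundant miRNA of the profile, left out of the total, the direction turned: the share was 2.90% in the control and 3.21% in the chilled profile with 1 entry, and 11.4% and 13.2% with entries summed.

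Most hairpins listed far more reads for the 3p than for the 5p sequence. Of the 19 hairpins, 17 had both arms listed, and 16 of the 17 had more 3p than 5p reads in both libraries. The exception was the hairpin at chr6:45681008-45681186 (minus strand), which pairs miR166a-5p, at 1398 control reads, with MIR166l-p3, at 43.5. That 5p sequence is also listed at 6 other hairpins, so the ratio does not describe that gene alone.

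The ratio of the arms differed both ways between the libraries. It was higher in the chilled library at 8 hairpins and lower at 9. The hairpin on chromosome 2 went from 2.62 to 3.26, and those listed under the names miR166a-3p and miR166a-5p went from 3.64 to 5.21. The hairpin that lists this 3p sequence as miR166m, with miR166a-5p, went from 3.55 to 5.05. The hairpin of MIR166e-p5 went from 130 to 36.4, that of MIR166r-p5 from 82.9 to 38.5, that of MIR166g-p5 from 300 to 177 and both of miR166h-5p from 31.9 to 23.1. The hairpins that share a sequence share its reads, so these 17 ratios are not independent of each other.

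**Figure D4:**
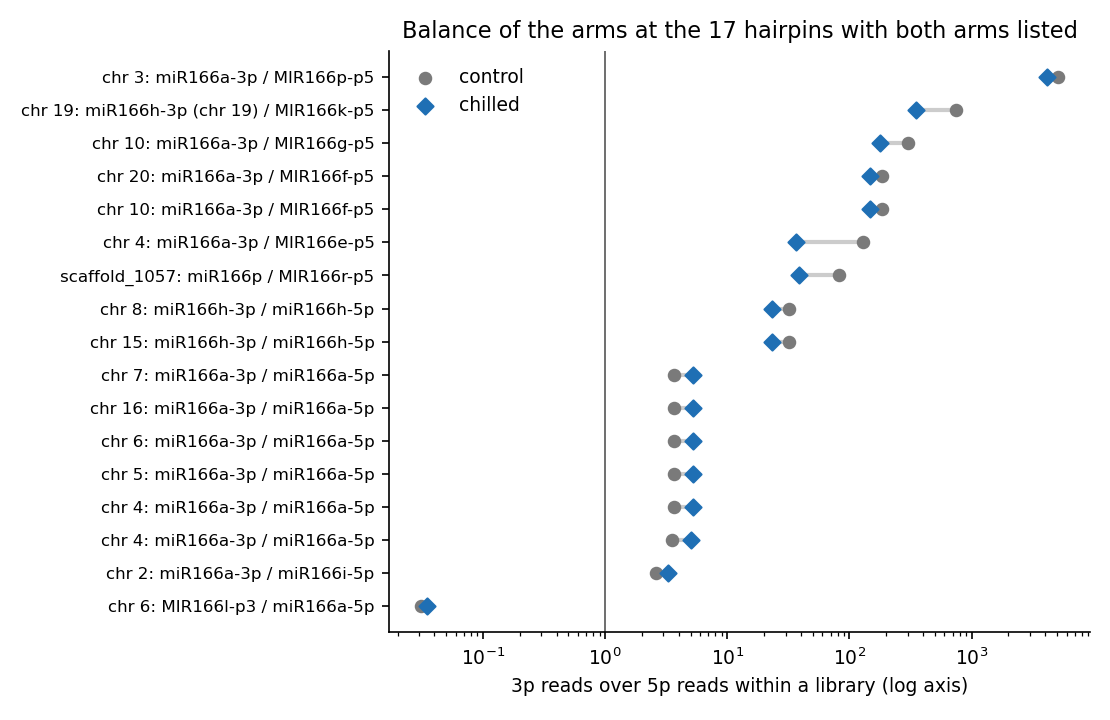
Reads of the 3p sequence over reads of the 5p sequence within the control (grey circles) and chilled (blue diamonds) library, on a log axis, for the 17 hairpins with both arms listed, named by chromosome and by the sequences of both arms. All but the hairpin of MIR166l-p3 lie to the right of 1, and the hairpin of MIR166e-p5 on chromosome 4 goes from 130 to 36.4.

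The degradome pairs of miR166 were almost wholly with HD-ZIP III genes. The authors' deposited table lists 70 pairs of the family, 7.80% of the table, over 24 transcripts of 14 gene loci. By the annotation in the authors' deposited table, 13 of these loci (23 transcripts) are HD-ZIP III genes. None of the 13 is paired with any other miRNA family, and none of the 261 loci of other families in the authors' deposited table is annotated as HD-ZIP III. A single family per locus is the usual case, as the authors' deposited table has 284 pairings of a family with a locus over 275 loci. The pairs of these 13 loci are listed for miR166a-3p, for its copy under the name miR166m and for MIR166l-p3. The abundant miR166p and miR166h-3p, with the same seed as miR166a-3p, have no pair there, and neither has the miR166h-3p of chromosome 19. This says only which sequences were listed. Whether the unlisted ones also cut these sites was not tested. The 5p arm has a single pair, of miR166h-5p.

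The authors' deposited table grades each site by a category from 0 to 4, where 0 is the strongest in the usual scheme (the cut site is the highest peak of its transcript). Of the 14 loci in the authors' deposited table, 9 were in category 0, 3 in category 2 and 2 in category 4. Over all pairings of a family with a locus in the authors' deposited table, 26.1% of 284 reached category 0. The same 9 loci had an authors' p-value under 0.05, against 20.4% of the 284 pairings. Several loci of the family share the same abundance value, and whether the 9 rest on separate reads was not tested. Values of the degradome below are the authors', from 1 library, with no SD.

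The strongest sites of the family were in both REV genes. In the authors' deposited table the abundance of reads at the cut site (TPB, a unit not spelled out there) was 733 in Glyma.11G145800, cut at base 1263 of the transcript. The authors' deposited table gives the same abundance of 733 TPB for its paralog Glyma.12G075800, cut at base 1281. Both are in category 0 in the authors' deposited table, with an alignment score of 3.0 (lower is a closer match) and a p-value of 0.0341 for miR166a-3p. These sites were 5.4 times as high as the highest PHB site and ranked joint 43 among the 275 loci of the authors' deposited table, above 84.0% of them. Whether the equal values of the paralogs come from reads that match both genes was not tested.

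The 4 PHB genes were less even. In the authors' deposited table Glyma.08G124400 had 136 TPB in category 0 (base 1072) and Glyma.05G166400 had 128 TPB in category 0 (bases 441 and 1077 of its 2 transcripts). Glyma.09G023600 had the same 136 TPB in the authors' deposited table but was in category 2, with a p-value of 0.865 (base 1183). The fourth gene, Glyma.15G129700, had 8.14 TPB in the authors' deposited table, the smallest value there, in category 4 (base 911). The highest and lowest PHB sites, 16.7 times apart, thus belong to genes of the same annotation and the same alignment score of 3.0 in the authors' deposited table.

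The 4 CNA genes were all in category 0, with a closer match to miR166a-3p than the REV and PHB genes. In the authors' deposited table their 11 transcripts had 81.4 to 106 TPB, an alignment score of 2.5 and a p-value of 0.0412 for miR166a-3p. Glyma.07G016500 had 97.7 TPB (base 919), and Glyma.07G016700 had 89.5 and 97.7 TPB over its 2 transcripts (bases 655 and 709) in the authors' deposited table. Glyma.08G201900 had 89.5 and 97.7 TPB (bases 898 and 979), and the 6 transcripts of Glyma.08G202000 had 81.4 to 106 TPB (bases 789 to 833) in the authors' deposited table. Transcripts of 1 gene can share a cut site, and whether the 11 transcripts hold separate sites was not tested.

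The 3 ATHB-8 genes had nearly equal abundance and differed in category. In the authors' deposited table Glyma.05G101500 had 97.7 TPB in category 0 with a score of 2.5 and a p-value of 0.0412 (base 193). Glyma.04G085000 had 97.7 TPB (base 906) and Glyma.06G086600 had 89.5 TPB (base 894), both in category 2 with a score of 3.0 and a p-value of 0.865 in the authors' deposited table. Over the family, therefore, a higher abundance did not go with a closer match: the REV genes had the highest TPB and the score of 3.0, and the CNA genes the score of 2.5. The median over the 13 HD-ZIP III loci was 97.7 TPB, equal to the median over all loci of the authors' deposited table, and the median over its category 0 loci was 706 TPB.

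**Figure D5:**
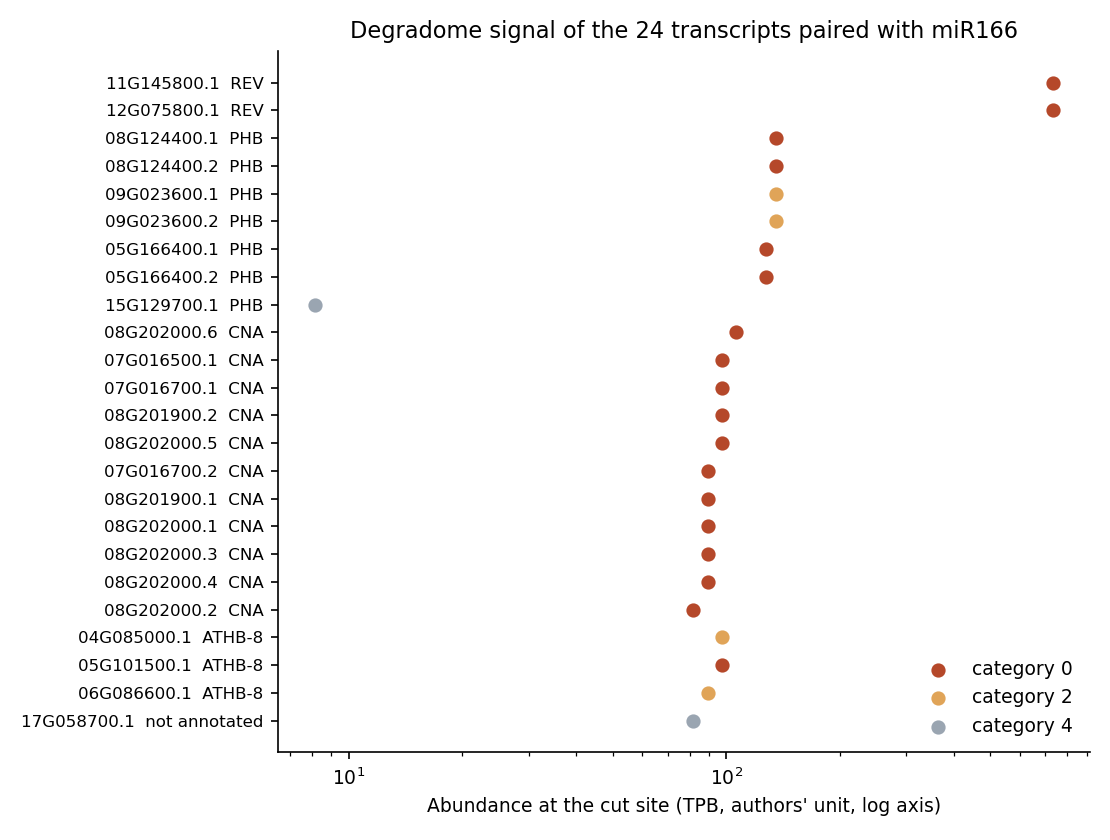
Abundance at the cut site (TPB, the authors' unit, log axis) for the 24 transcripts that the authors' deposited table pairs with miR166, grouped by the annotated HD-ZIP III gene (names without the prefix Glyma) and coloured by category. Both REV transcripts lie at 733, most others between 81.4 and 136, and the PHB transcript 15G129700.1 at 8.14.

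The remaining locus, Glyma.17G058700, carries no annotation. The authors' deposited table pairs it with miR166h-5p at base 211, with 81.4 TPB, category 4, an alignment score of 4.0 and a p-value of 0.691. Neither sequence that passed the 2-fold mark, MIR166e-p5 or MIR166r-p5, has a pair in the authors' deposited table.

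Other genes of leaf polarity were also looked for among the degradome pairs. A list of KANADI, YABBY, LITTLE ZIPPER, AS1, AS2, ARF and AGO genes of this pathway was searched in the annotation. How many genes of the list could have matched was not counted. The list matched 6 of the 898 pairs and 2 of the 275 loci in the authors' deposited table, both loci annotated as ARF2, an auxin response factor. Those pairs are of miR4376a-3p, not of miR166, and have 13.6 TPB in category 4 with a smallest p-value of 0.634 in the authors' deposited table. None of the 13 HD-ZIP III genes has an expression value in the files used here, so levels of the targets in control and chilled leaves were not analysed here.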

How the data were processed

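Small RNA was sequenced from 1 control and 1 chilled library, each of 3 pooled replicates, and a degradome from 1 mixed library, per the labels' protocols. The deposited profile holds reads per entry, called raw reads per the file headers; many hold fractions, so the deposited values are taken as estimated counts (expected counts, as in reads shared out over loci), not scaled to depth. Hairpin GC percent and folding scores are the authors'. The degradome's abundance signal (TPB), alignment score, category and p-value are as the authors deposited them. Trimming, aligner, callers, miRBase release and build were not named in the sources used here. In the profile, 6 emptied lines are not analysed here.

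One entry, that with most reads, was kept per distinct mature sequence. Arms were taken from the arm type that the authors deposited for each entry. Counts were rounded for scaling and for intervals. Libraries were scaled with edgeR 4.0.16 (TMM, R 4.3.3), a log2 shift of 0.25 between chilled and control. DESeq2 1.42.0 size factors were an alternative. Log2 ratios carry a pseudocount of 1; calls needed a ratio of at least 1 either way and 10 normalised reads. Ratio intervals are exact conditional binomial and share intervals Wilson, at 95%, and PCR reads without molecular identifiers are not independent molecules. The ratio and call steps were run on simulated whole-number Poisson reads, which checks the code and not the spread of real libraries. Every sequence and locus of the family is reported, and the members and lists were chosen with earlier results of these data known.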

Additional observations from a re-analysis of the deposited data

How the results depend on the processing

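The scaling of the 2 libraries moves every ratio by about the same amount, by construction. For the family sum the log2 ratio was -0.10 with DESeq2 size factors, -0.28 at the same table total, 0.14 at the same total without miR3522 (the most abundant miRNA) and 0.19 unscaled. For the 3p arm it was -0.043, -0.22, 0.20 and 0.25 in that order. For the 5p arm it was -0.47 at the same total, -0.045 without miR3522, 0.0033 unscaled and -0.41 with entries summed. The 2 calls became 1 (MIR166e-p5) with DESeq2, at the same total, with a pseudocount of 5 and with a minimum of 100 reads, and 4 unscaled. Across 7 settings 12 of 14 sequences kept their side of 0, miR166a-3p and miR166p being the exceptions. Settings that change only the pseudocount cannot move a ratio across 0, so they add nothing to this count. The 12 include the barely detected MIR166k-p5 and MIR166p-p5, whose counting intervals run from -3.51 to 6.64. Summing entries changed the share of miR166a-3p to 80.1% (control) and 83.1% (chilled), and the 5p share to 13.4% and 10.3%. The 14 loci of the authors' deposited table became 9 in category 0 or 1, 9 at a p-value under 0.05, and 24 transcripts, of which 23 are HD-ZIP III. No paired analysis was possible because each condition has 1 library. Depth limited the scarce 5p sequences, such as MIR166g-p5, whose counting interval runs from -0.08 to 1.72.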

Other observations

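At each of the 23 HD-ZIP III transcripts, the authors' deposited table gives MIR166l-p3 a less close alignment score than miR166a-3p at the same site, and a lower p-value. In the CNA genes the score went from 2.5 to 3.0 and the p-value from 0.0412 to 0.0372 in the authors' deposited table. In the REV genes the score went from 3.0 to 3.5 and the p-value from 0.0341 to 0.0304 there. For a given miR166 sequence, transcripts of equal score and category have the same p-value, so the 23 are not independent comparisons. Among 322 such comparisons within other families of the authors' deposited table, 100 had the lower p-value at the higher score. Whether those are independent of each other was not tested. The p-values of 2 miR166 sequences at one site therefore do not follow the closeness of their match.

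Many abundance values of the degradome share a common unit. The smallest in the authors' deposited table is 8.14 TPB, and 72.7% of all pairs have a value that is a whole multiple of it within 0.01. Both REV genes lie at 90 times that smallest value, the CNA transcripts at 10 to 13 times, and the ATHB-8 genes at 11 and 12 times. The PHB values of 128 and 136 TPB lie at 15.7 and 16.7 times the smallest value, so they are among the values that are not whole multiples.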
